A study of Arabidopsis thaliana with 6 samples.

Results

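MicroRNA (miRNA) primary transcripts are the precursors from which plant miRNAs are cut, and 77 of them are described here in leaves of wild-type Arabidopsis thaliana and of a mac3a mac3b double mutant. They were chosen as the entries annotated as miRNA primary transcripts with a mean of at least 0.2 RPKM over the 6 libraries, where RPKM is a read number divided by annotated length and by library size. Of 38194 entries in the expression table, 325 carry that annotation; 77 reached the limit and 248 did not, 189 of which had 0 reads in every library. Just below the limit were MIR419 at 0.198, MIR402 at 0.192 and MIR8176 at 0.182 RPKM, and just above it MIR166e at 0.203, MIR170 at 0.227 and MIR169h at 0.232 RPKM. The limit was met by the mean of both genotypes in 58 members, of Col-0 alone in 12 and of the mutant alone in 7, and those 19 could only be members by differing in this direction.

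The study sequenced polyadenylated RNA from rosette leaves, with 3 libraries of the wild-type accession Col-0 and 3 of plants mutant in both mac3a and mac3b (mac3a/mac3b). The plants of both genotypes were 40 days old and had not flowered. They were raised at 22 °C with a daily light period of 8 h and a dark period of 16 h. Both genotypes also had a cold soak of 3 days and light of 85 to 120 µmol per square metre per second. MAC3A and MAC3B are closely related subunits of the spliceosome-associated MOS4-associated complex, and the study asked how their loss leads to early flowering. The labels name neither the mutant alleles nor whether replicates were separate plants, so p-values measure the spread between these libraries, which may be technical.

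A plant miRNA gene is transcribed by RNA polymerase II into a capped and polyadenylated transcript that folds into a hairpin. The enzyme DCL1, helped by HYL1 and SE, cuts the hairpin into a short duplex, and one strand enters AGO1 and guides the cleavage or silencing of matching mRNAs. Subunits of the MOS4-associated complex are known to take part in this production of miRNAs. In leaves, miRNA families set the levels of transcription factors for growth phase, leaf polarity and auxin response, and of enzymes for copper and sulfate use. Each expression entry covers the annotated hairpin, and cut hairpins lose their poly(A) tail, so the values are of uncut primary transcripts and of any other RNA that crosses the hairpin.

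The mature miRNAs of the members on which the results turn are printed from the RefSeq annotation and genome sequence of TAIR10.1, as DNA letters from 5′ to 3′, with the seed, bases 2 to 8, in capitals. Neither of the sets below holds every member of its direction. The first set holds miRNAs whose primary transcripts were lower in every mutant library than in the Col-0 library of the same number. Members with the same seed stand together. In this set MIR160a, MIR160b, MIR171b, MIR156c and MIR159a met the 0.2 RPKM limit through Col-0 alone.
miR160a-5p, miR160b and miR160c-5p: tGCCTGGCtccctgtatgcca
miR167a-5p: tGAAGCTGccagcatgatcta
miR167d: tGAAGCTGccagcatgatctgg
miR159b-3p: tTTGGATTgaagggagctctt
miR159a: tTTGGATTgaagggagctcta
miR171b-3p and miR171c-3p: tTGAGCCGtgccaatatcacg
miR156c-5p and miR156d-5p: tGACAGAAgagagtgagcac
miR168a-5p: tCGCTTGGtgcaggtcgggaa
miR172b-3p: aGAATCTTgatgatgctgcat
miR838: tTTTCTTCtacttcttgcaca
The second set holds miRNAs of primary transcripts that were higher in every mutant library than in the Col-0 library of the same number. No seed is shared among those printed. MIR1888a, MIR5024 and MIR5632 met the limit through the mutant alone. MIR414, MIR5642a, MIR852, MIR5656, MIR5661 and MIR8170 were also higher in each numbered pair and are not printed.
miR1888a: tAAGTTAAgatttgtgaagaa
miR5024-5p: aTGACAAGgccaagatataaca
miR5014a-5p: aCACTTAGttttgtacaacat
miR5632-5p: tTGATTCTcttatccaactgt

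The hairpins of the member with the most negative and of the member with the most positive log2 fold change on the log2(RPKM + 0.5) scale are shown whole; that scale shrinks the changes of members with few reads, and edgeR on recovered reads orders them differently. They are printed with annotated mature miRNAs in capitals. MIR160c (AT5G46845) lies on the minus strand at chr5:19009094-19009182 with no other annotated gene over it, and MIR1888a (AT5G03305) lies on the plus strand at chr5:7168870-7168969 inside the first intron of AT5G21100.
MIR160c: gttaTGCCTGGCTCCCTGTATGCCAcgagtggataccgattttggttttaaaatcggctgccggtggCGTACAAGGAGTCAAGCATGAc
MIR1888a: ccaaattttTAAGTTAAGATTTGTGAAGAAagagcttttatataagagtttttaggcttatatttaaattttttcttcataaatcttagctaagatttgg

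The RPKM values rest on 91600000 to 130300000 reads per library. Col-0 and mutant means were 19.6 ± 2.68 and 7.03 ± 1.60 RPKM for MAC3A and 40.3 ± 7.55 and 7.41 ± 1.68 RPKM for MAC3B (SD, n = 3), so all mutant libraries were lower for both mutated genes. Leaf markers were abundant, with RBCS1A, the small subunit of Rubisco, at 5686 RPKM or more in each library. The root hair gene RHD6 was listed at 0 in all libraries and the petal identity gene AP3 did not exceed 0.08 RPKM. Of 15 marker genes, 5 were higher in every mutant library than in all Col-0 libraries, namely RCA, LHCB2.1, FAMA, KAT1 and AG. Of all 19864 entries tested, 9.93% were. KAT1, a guard cell channel, was at 10.7 ± 1.91 and 24.6 ± 4.56 RPKM and the floral gene AG at 0.48 ± 0.16 and 1.02 ± 0.03 RPKM (SD, n = 3), and their part in the results was not tested. In bulk RNA, fewer cells of a type cannot be told apart from less RNA per cell.

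The typical member was lower in the mutant than in Col-0. Of the classes by place of the hairpin, described later, only members without another gene had a median below 0. The median log2 fold change of mutant over Col-0, on the scale log2(RPKM + 0.5) used throughout, was −0.33 over the 77 members and 0.01 over all 19864 entries tested, and 50 of 77 members were below 0 against 48.2% of all entries. The members' median was −0.49 with a pseudocount of 0.1, −0.60 with edgeR and the replicate block, and −0.20 without Col-0 replicate 1. The mutant values lay wholly below those of Col-0 in 12 members (15.6%, background 7.27%) and wholly above in 7 (9.09%, background 9.93%). Of the 12 lower members 4 met the limit through Col-0 alone, and of the 7 higher 4 through the mutant alone. The choice of members set the direction of these. No member passed the limma test at an adjusted p of 0.05, where 27 of all entries (0.136%) did. At an unadjusted p under 0.05 there were 18 members, 11 lower and 7 higher, where 11.7% of all entries were called, 5.05% lower and 6.7% higher. Same-numbered libraries of the 2 genotypes deviated from their group means in the same direction, and with the replicate number as a block 7 members passed, 4 lower and 3 higher (background 4.3%, 1.71% lower and 2.6% higher). Of the 3 higher, MIR1888a and MIR5024 met the limit through the mutant alone. On reads recovered from RPKM, edgeR's quasi-likelihood test called no member (background 0.0101%). With the block it called 1, which was lower (background 3.49%, 1.2% lower).

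The members' read support was thin. Their reads over 6 libraries ran from 8 to 15575 with a median of 85, and 8 members had fewer than 20 reads. The precision of low members was therefore limited by counting, and an entry with 0 reads is still listed at the value of 0.5 read. Against mRNA entries of like mean RPKM, members were lower in each band under 20 RPKM. From 0.2 to 0.5 RPKM the median log2 fold change was −0.27 over 30 members and 0.10 over 1112 mRNAs. That band holds most of the members that met the limit through Col-0 alone or the mutant alone, whose direction the choice of members set. From 5 to 20 RPKM the median was −0.67 over 11 members and 0.01 over 7416 mRNAs. The bands match RPKM and not read number. The 4 members at 20 RPKM or more had a median of 0.34 against 0.01 in mRNAs, on the other side of 0.

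**Figure D1:**
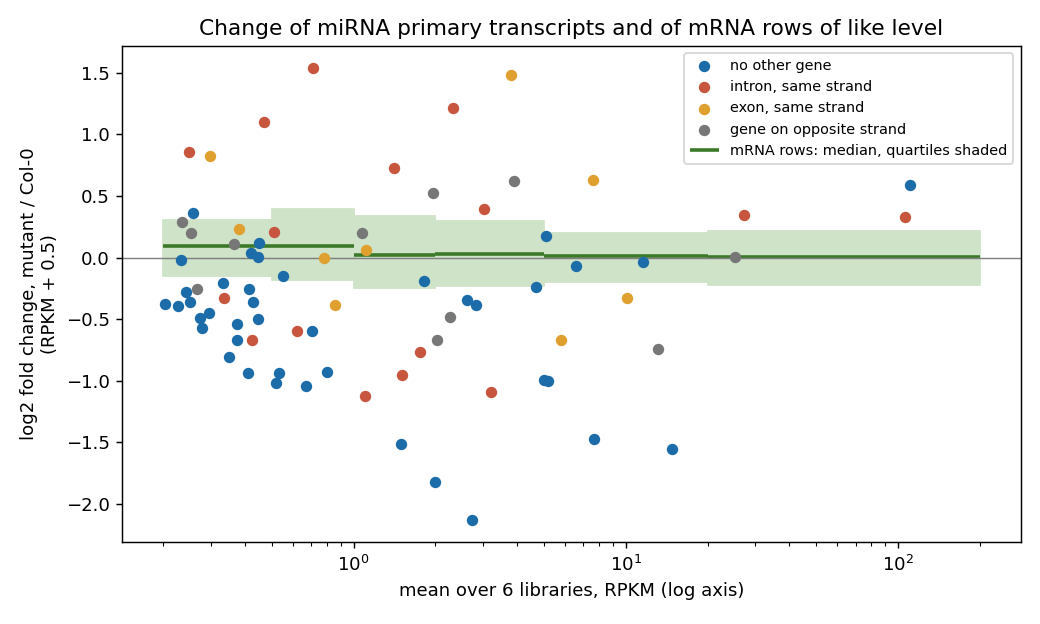
Log2 fold change of mutant over Col-0 for each of the 77 members against its mean RPKM over 6 libraries on a log axis, coloured by what the annotation holds at the hairpin; green lines and shading give the median and quartiles of mRNA entries in bands of mean RPKM. Most members without another gene lie under the green line below 20 RPKM, down to −2.13 for MIR160c.

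The values are given next by the place of the hairpin. Of 41 members with no other annotated gene over the hairpin, 35 had a log2 fold change below 0 and the median was −0.40. These include the 12 members that met the limit through Col-0 alone, whose direction the choice of members set; of the 28 that met it in both genotypes, 23 were below 0. The median was −0.92 with a pseudocount of 0.1 and −1.13 with edgeR. In the class 10 members (24.4%) were lower without overlap, 4 of them among those 12, and 1 (2.44%) was higher. The 16 members inside an intron of a gene on the same strand had a median of 0.27, with 2 lower and 3 higher without overlap. Its sign rests on single libraries, since it was −0.016 without Col-0 replicate 2, and 0.0042 and 0.038 without replicate 2 or 1 of the mutant. The 9 in an exon of a same-strand gene had a median of 0.06 and the 11 opposite another gene a median of 0.11. Differences between these classes were not tested. The median RPKM of the 41 members was 0.65, 0.71 and 0.79 in the Col-0 libraries and 0.37, 0.29 and 0.49 in the mutant libraries. These medians did not overlap between genotypes. They include the 12 members that met the limit through Col-0 alone, so part of the separation may come from the choice of members. Library medians over the 28 members that met it in both genotypes were not calculated. For the 16 intronic members the medians were 0.90, 1.19 and 0.925 RPKM in Col-0 and 0.59, 1.75 and 0.78 RPKM in the mutant, which overlapped. Whether the counting used strand is not given in the sources used here, so for the 36 members over another gene reads of the hairpin and of that gene cannot be told apart.

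**Figure D2:**
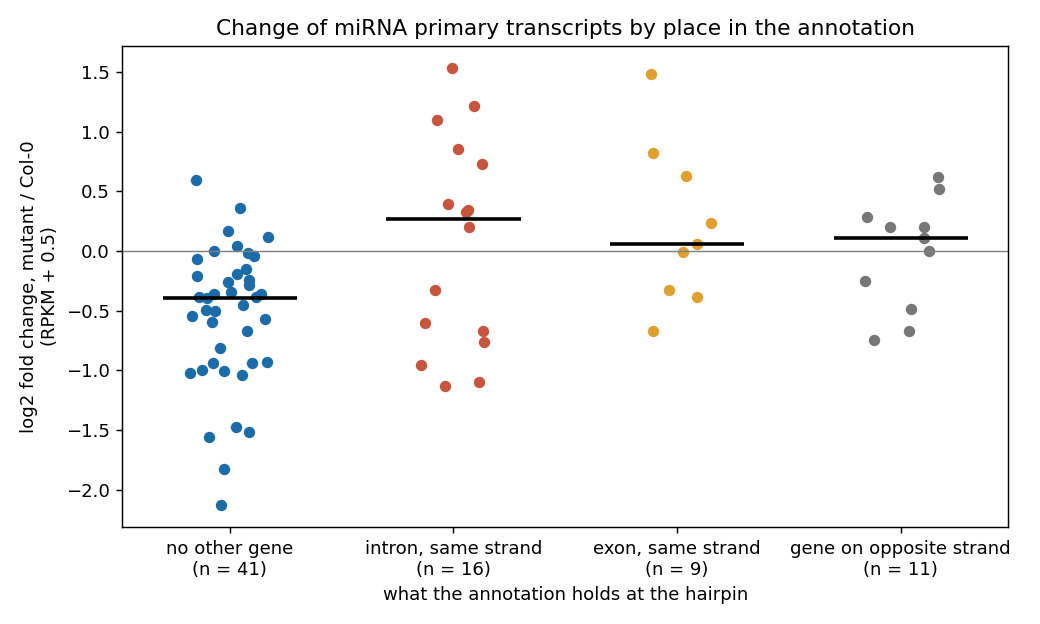
Log2 fold change of mutant over Col-0 for each member, grouped by what the TAIR10.1 annotation holds at the hairpin; points are members and bars are medians. Members without another gene have a median of −0.40 and the 3 other classes have medians of 0.27, 0.06 and 0.11.

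MIR160a, MIR160b and MIR160c encode one mature miRNA, which targets auxin response factors of the ARF10 group. MIR160c was at 3.78, 6.94 and 3.54 RPKM in Col-0 and 0.43, 1.10 and 0.53 RPKM in the mutant. All mutant values lay below all Col-0 values, at 156 against 18 reads. On the log2 scale it differed by −2.13 (SE 0.33, limma adjusted p = 0.102), and it fell with the replicate block (adjusted p = 0.0160). It was also the member that edgeR called with the block (adjusted p = 0.0424). MIR160b had 27 reads in Col-0 and 2 in the mutant, and MIR160a 22 and 1. Neither overlapped between genotypes, and their log2 fold changes were −1.02 and −0.94, neither past an adjusted threshold. The added 0.5 RPKM shrinks such low values, and edgeR on recovered reads gave −3.28 and −3.77. Both met the limit through Col-0 alone.

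The miR167 family targets ARF6 and ARF8, auxin response factors of flower and leaf growth. MIR167a was at 1.90, 2.31 and 3.16 RPKM in Col-0 and 0.59, 0.34 and 0.65 RPKM in the mutant, without overlap. On the log2 scale this was −1.52 (SE 0.24, limma adjusted p = 0.104, with the block 0.0266). MIR167d was lower in each numbered pair, at 7.58, 10.99 and 2.14 against 2.13, 5.90 and 1.33 RPKM, but the genotypes overlapped. MIR167b, whose mature sequence is that of miR167a, was at 6.80 ± 2.75 and 6.29 ± 1.71 RPKM (SD, n = 3), a difference within the replicate spread.

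Members of the feedback on miRNA production itself were among the lower ones. MIR168a, whose miRNA targets AGO1, was at 5.51, 8.37 and 7.47 RPKM in Col-0 and 2.89, 3.67 and 3.24 RPKM in the mutant. The genotypes did not overlap, and the difference was −1.002 on the log2 scale (SE 0.21, limma adjusted p = 0.179, with the block 0.0343). MIR162a, whose miRNA targets DCL1, was at 6.21, 17.14 and 8.54 RPKM in Col-0 and 2.22, 10.54 and 1.17 RPKM in the mutant. It was lower in each numbered pair, yet replicate 2 was highest in both genotypes and the groups overlapped (log2 fold change −1.47, adjusted p with the block 0.0805). AGO1 itself was at 44.9 ± 10.2 and 36.4 ± 5.76 RPKM and DCL1 at 10.8 ± 1.87 and 8.36 ± 1.11 RPKM (SD, n = 3), and neither passed the test.

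MIR172b, MIR159b, MIR156c and MIR171b belong to families that act on growth phase and development. MIR172b, whose family restrains AP2-type repressors of flowering, was at 6.35, 2.22 and 1.86 RPKM in Col-0 and 0.29, 0.76 and 0.50 RPKM in the mutant. No mutant value reached the lowest Col-0 value, and the difference was −1.82 on the log2 scale (SE 0.43, limma adjusted p = 0.206, with the block 0.0805). MIR159b, whose family targets GAMYB-like factors, was at 9.65, 29.20 and 29.21 RPKM in Col-0 and 6.87 ± 2.77 RPKM (SD, n = 3) in the mutant. It was lower in all 3 pairs, but mutant replicate 2 exceeded the lowest Col-0 value. MIR156c, whose family holds plants in the juvenile phase by acting on SPL factors, had 21 reads in Col-0 and 2 in the mutant. MIR171b, whose family targets HAM factors of the meristem, had 35 and 5 reads. Their log2 fold changes of −0.81 and −0.94 did not pass an adjusted threshold, and both met the limit through Col-0 alone. MIR447a was also lower without overlap, at 2.97 ± 0.29 and 2.25 ± 0.44 RPKM (SD, n = 3).

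**Figure D3:**
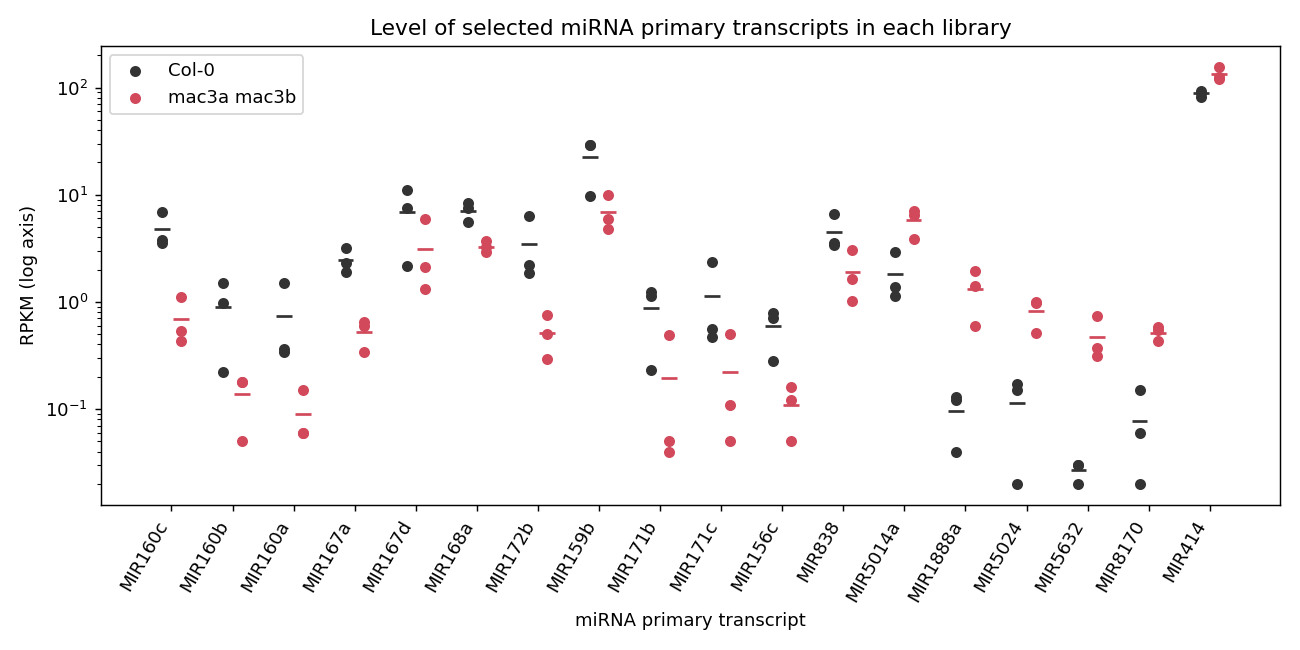
RPKM on a log axis in each library for 18 members, with Col-0 in black and mac3a mac3b in red; bars are group means. MIR160c and MIR167a show no overlap with the mutant lower, and MIR1888a and MIR5024 none with the mutant higher. MIR160a, MIR160b, MIR171b and MIR156c met the 0.2 RPKM limit through Col-0 alone, and MIR1888a, MIR5024, MIR5632 and MIR8170 through the mutant alone. The choice of members set the direction of these.

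Among the 14 families with at least 2 members, 9 had every member below 0, together 23 members. They were MIR156, MIR159, MIR160, MIR162, MIR166, MIR167, MIR169, MIR171 and MIR396. Of their members, MIR156c, MIR159a, MIR160a, MIR160b, MIR166e, MIR169k, MIR169m and MIR171b met the limit through Col-0 alone. The choice of members set the direction of these, so the count of families is a description. Of all entries, 48.2% were below 0. The 3 families with no member below 0 were MIR398, MIR833 and MIR5630, and MIR841 and MIR1888 had members on both sides. Both MIR5630 members, and MIR1888a, met the limit through the mutant alone. The miR166 family, which sets leaf polarity through class III HD-ZIP factors, ran from −0.38 to −0.26. The added 0.5 RPKM shrinks and narrows these low values. The mutant mean was 58.65% of the Col-0 mean for MIR166a, 71.03% for MIR166b and 35.57% for MIR166e. The MIR169 values rest on few libraries, since MIR169m had 51 of its 53 reads in Col-0 replicate 1 and 2 in mutant replicate 1. Members of MIR5630 and of MIR841 share stretches of at least 50 bases, so reads may have been split between them. MIR833b lies wholly within MIR833a on the opposite strand, so the values of this pair may not be independent either. MIR833b had 91 reads in Col-0 and 122 in the mutant, and MIR833a 26 and 37. How reads were assigned between them was not tested. The hairpins of MIR5630a and MIR5630b are identical, so their values are not independent.

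**Figure D4:**
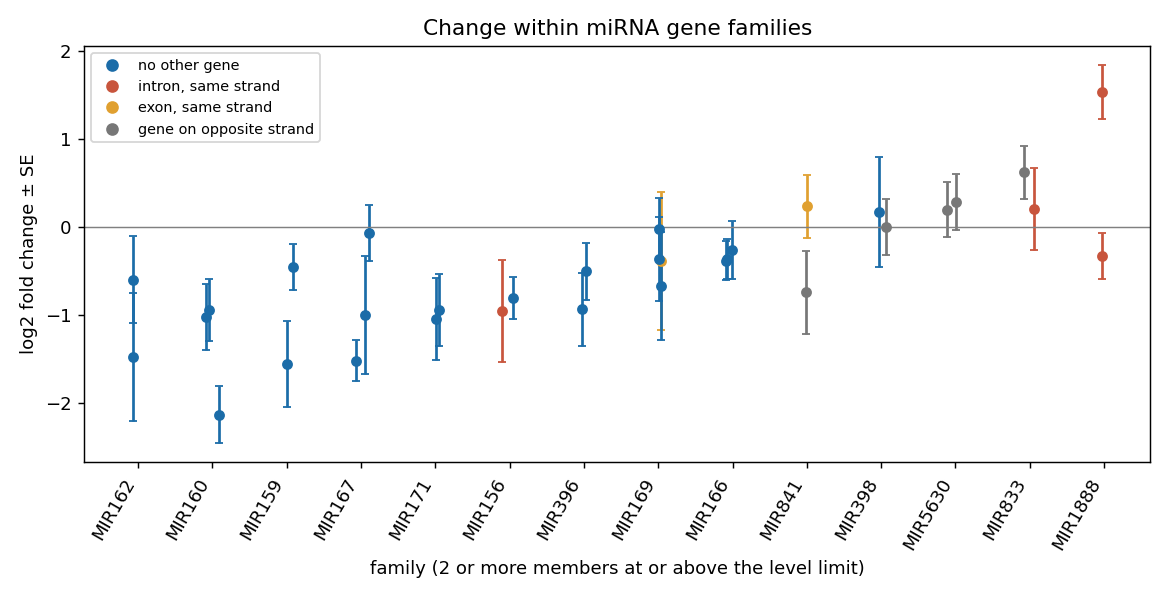
Log2 fold change with its standard error for the members of the 14 families that have at least 2 members, ordered by family median and coloured by place of the hairpin. All MIR160, MIR162 and MIR159 members lie below 0, and both MIR5630 members lie above it. MIR160a, MIR160b and MIR159a met the 0.2 RPKM limit through Col-0 alone, and both MIR5630 members through the mutant alone.

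The 10 most abundant members include MIR159b and MIR162a, given above, and 8 others. MIR414 was at 82.03, 89.74 and 92.40 RPKM in Col-0 and 156.36, 119.53 and 125.71 RPKM in the mutant. It was the only member without another gene that was higher without overlap (log2 fold change 0.59, SE 0.19, limma adjusted p = 0.314, with the block 0.113). MIR850 was at 152.16, 49.27 and 79.79 RPKM in Col-0 and 158.28, 145.45 and 51.81 RPKM in the mutant, and overlapped widely. MIR5026 and MIR863, which with MIR850 lie in the noncoding gene AT4G13495, were at 23.5 ± 12.5 and 30.9 ± 15.9 RPKM and at 11.3 ± 7.54 and 8.96 ± 5.63 RPKM (SD, n = 3). MIR163 was high in replicate 3 of both genotypes, at 22.69 and 24.60 RPKM against 3.84 to 8.23 RPKM elsewhere.

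MIR398b, whose miRNA acts on copper superoxide dismutases, had means of 25.96 ± 9.77 RPKM over the Col-0 libraries and 24.7 ± 2.80 RPKM over the mutant ones (SD, n = 3). MIR841a, opposite the histone gene HTA4, was at 15.7 ± 1.75 and 10.7 ± 7.44 RPKM, with mutant replicate 2 at 18.92 RPKM above all Col-0 libraries. MIR5642a, in an exon of AT3G06325, was at 7.13, 4.67 and 5.77 RPKM in Col-0 and 11.24, 9.71 and 7.17 RPKM in the mutant. Its genotypes barely separated, and the log2 fold change of 0.63 did not pass an adjusted threshold.

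Of the 7 members that were higher without overlap, 6 lay within another gene, as 36 of all 77 members do, and 4 of the 6 met the limit through the mutant alone. MIR1888a was at 0.04, 0.12 and 0.13 RPKM in Col-0 and 0.60, 1.41 and 1.95 RPKM in the mutant, at 2 against 39 reads. The genotypes did not overlap, and the difference was 1.54 on the log2 scale (SE 0.31, limma adjusted p = 0.174, with the block 0.0343). MIR1888a met the 0.2 RPKM limit through the mutant alone, as did MIR5024, MIR5632 and MIR8170, so the choice of members set their direction and their values are a description. MIR5024, in an intron of the amino acid permease gene AAP5, was at 0.02, 0.15 and 0.17 RPKM in Col-0 and 0.51, 0.99 and 0.98 RPKM in the mutant, without overlap (log2 fold change 1.10, with the block adjusted p = 0.0328). MIR5014a, in the glutamate decarboxylase gene GAD2, was at 1.39, 2.91 and 1.13 RPKM in Col-0 and 3.83, 7.09 and 6.46 RPKM in the mutant. On the log2 scale it differed by 1.48 (SE 0.36, limma adjusted p = 0.211, with the block 0.0404), and each mutant library exceeded all Col-0 libraries. MIR5632, in an intron of AT2G19390, had 0 reads in Col-0 and 22 in the mutant, at least 8.84-fold higher per read sequenced, with a floor of 3 counts over the group. MIR8170, in an exon of AT2G33255, had 4 and 28 reads.

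MIR838 differed from these. It lies in intron 14 of DCL1, and its processing there is known to compete with splicing of the DCL1 mRNA. It was at 3.55, 6.56 and 3.41 RPKM in Col-0 and 1.02, 3.07 and 1.62 RPKM in the mutant, without overlap. On the log2 scale it differed by −1.09 (SE 0.39, limma adjusted p = 0.354, with the block 0.0404). MIR853, in an intron of AT3G23325, was also lower without overlap, at 66 against 17 reads.

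In the authors' deposited table, 71 members have an adjusted p, of which 5 are called lower (MIR159b, MIR168a, MIR160c, MIR172b and MIR167a) and 1 higher (MIR1888a). Of all entries with an adjusted p in the authors' deposited table, 4.24% are called, 1.68% lower and 2.56% higher.

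The host introns that hold hairpins were examined next. The 3 splicing tables hold 0 entries of miRNA genes themselves, so splicing of primary transcripts and their junctions were not analysed here. For 18 members the hairpin lies in 17 introns of other genes found in the intron table by length, and 14 introns had an intron plus exon depth of at least 10 in every library. Retention is given as intron depth in percent of intron plus exon depth, and was tested with limma on the log2 ratio of intron to exon depth. It rose in 4 of 14 introns and fell in 0 (2 rose with the replicate block). Those 2 introns hold MIR5024 and MIR5632, which met the 0.2 RPKM limit through the mutant alone, so the choice of members favoured their rise. Of all 94773 introns tested 64.3% were called, 64.2% higher, and 64.7% with the block, 64.6% higher. The median log2 change was 1.03 over the 14 introns and 1.83 over all introns. The share called among host introns was thus below the background, and no test of that difference was made.

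The AAP5 intron around MIR5024 rose from 0.0117%, 0.135% and 0.0463% in Col-0 to 0.739%, 0.579% and 0.877% in the mutant. The genotypes did not overlap, with a log2 change of 2.35 (SE 0.52, limma adjusted p = 0.00398, with the block 0.00765). The AT2G19390 intron around MIR5632 rose from a mean of 0.00667 ± 0.00302% to one of 0.582 ± 0.298% (SD, n = 3), with limma adjusted p-values of 0.0119 and, with the block, 0.0187. The GAD2 intron around MIR5014a rose from 0.731 ± 0.153% to 1.92 ± 0.687% (limma adjusted p = 0.0401), but passed no longer with the block (adjusted p = 0.0541). The AT1G05780 intron around MIR5656 rose from 3.49 ± 1.27% to 6.90 ± 0.538% (limma adjusted p = 0.0473), likewise lost with the block (adjusted p = 0.0581). The AT5G21100 intron around MIR1888a was at 0.174%, 0.0523% and 0.0917% in Col-0 and 0.123%, 0.330% and 1.67% in the mutant, which overlapped. Hairpin and intron readings share the same reads, so their movement together is one measurement. MIR5024, MIR5632 and MIR1888a met the 0.2 RPKM limit through the mutant alone. The choice of members therefore favoured higher mutant values in their introns, and the p-values of the AAP5 and AT2G19390 introns are a description.

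Intron 14 of DCL1 around MIR838 was at 4.02%, 4.43% and 3.90% in Col-0 and 1.71%, 2.60% and 2.74% in the mutant. The mutant libraries were all lower, without passing the test (log2 change −0.78, SE 0.43, limma adjusted p = 0.128). The alpha-ADR intron around MIR3434 was at 1.10 ± 0.344% and 0.458 ± 0.279% and that of AT3G60960 around MIR1888b at 4.64 ± 1.32% and 3.86 ± 0.324% (SD, n = 3). The other tested introns were those around MIR853, MIR852, MIR2112, MIR156d and MIR5996 and the AT4G13495 intron shared by MIR850 and MIR5026, and each had a mean retention that was higher in the mutant without passing the test.

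**Figure D5:**
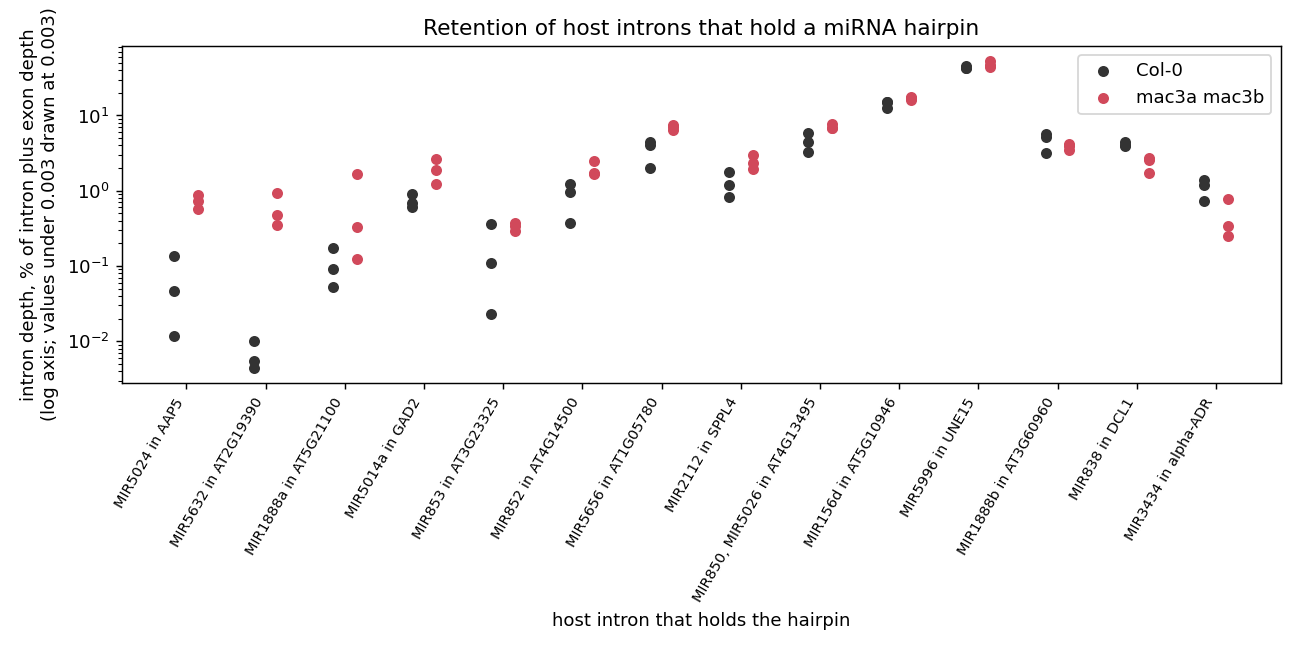
Retention of the 14 tested host introns in each library, as intron depth in percent of intron plus exon depth on a log axis, with Col-0 in black and mac3a mac3b in red. The AAP5 and AT2G19390 introns show the widest separation, and the DCL1 intron lies lower in the mutant. The AAP5 and AT2G19390 introns hold MIR5024 and MIR5632, which met the 0.2 RPKM limit through the mutant alone.

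Target mRNAs of conserved miRNA families were read from the same fit. Of 73 listed targets 67 were tested, with a median log2 fold change of 0.13. None passed the limma test, while 18 had an unadjusted p under 0.05 (11.7% of all entries), and with the replicate block 5 rose and 2 fell (2.6% and 1.71% of all entries). SPL15, a miR156 target that promotes the adult phase, was at 0.39, 0.23 and 0.49 RPKM in Col-0 and 1.09, 1.60 and 1.81 RPKM in the mutant (log2 fold change 1.20, adjusted p with the block 0.0406). PHV, a leaf polarity factor and miR166 target, was at 9.22 ± 1.16 and 15.8 ± 1.73 RPKM (SD, n = 3), with a blocked adjusted p of 0.0406. ARF8, a miR167 target, was at 6.70 ± 1.73 and 13.3 ± 1.87 RPKM, with a blocked adjusted p of 0.0330. In these 3 genes every mutant library exceeded every Col-0 library.

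Other targets stand beside their miRNA genes as follows. The miR160 targets ARF10, ARF16 and ARF17 had log2 fold changes of −0.36, −0.19 and 0.13, none past a threshold. The sulfate assimilation genes APS1 and APS3, targets of miR395, rose with the block from 140.6 ± 18.8 to 296.9 ± 13.01 RPKM and from 14.7 ± 3.14 to 39.1 ± 10.6 RPKM (SD, n = 3; limma adjusted p with the block 0.0404 and 0.0198). APS4 fell with the block from 47.3 ± 27.5 to 24.6 ± 13.5 RPKM (adjusted p = 0.0367), although its genotypes overlapped. No MIR395 gene was among the members. CSD2, a superoxide dismutase and miR398 target, fell with the block from 123.2 ± 67.7 to 29.98 ± 6.80 RPKM (adjusted p = 0.0343), beside MIR398b and MIR398c at log2 fold changes of 0.00 and 0.17.

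Genes that make, load or degrade miRNAs were the last group. All 26 listed genes were tested; none passed limma's test with or without the block, and 2 had an unadjusted p under 0.05, where 11.7% of all entries did. GRP7, an RNA-binding protein of the circadian system, was at 4839, 6040 and 6477 RPKM in Col-0 and 914.4, 1951 and 1983 RPKM in the mutant, without overlap (log2 fold change −1.91, limma adjusted p = 0.285, with the block 0.113). ABH1, the large cap-binding subunit, was at 11.6 ± 1.35 and 17.8 ± 2.31 RPKM and NOT2A at 9.57 ± 0.993 and 12.3 ± 1.54 RPKM (SD, n = 3). HYL1 was at 5.60 ± 1.62 and 7.10 ± 2.92 RPKM and SE at 17.6 ± 2.49 and 19.0 ± 3.01 RPKM, differences within the replicate spread.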

How the data were processed

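The deposited expression table gives RPKM per entry and library with the authors' own log2 fold change and p-value. Trimmomatic, Bowtie2, DESeq2 and TAIR10 are named per the submitters' processing notes, and versions are not given in the sources used here. The values fitted unique reads + 0.5, divided by length and library size, as checked against the deposited unique read count of other genes. Whole reads were recovered from that relation, and 93.5% of 336 values in 56 short members fell within rounding of a whole read. The intron table holds deposited read depth (a coverage signal) of introns and exons.

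Limma 3.58.1 in R 4.3.3 (lmFit, eBayes with trend) was fitted on log2(RPKM + 0.5) over 19864 entries with a mean of at least 0.2 RPKM, and for introns on the log2 ratio of intron to exon depth, each + 0.5, with Benjamini-Hochberg adjustment and a threshold of 0.05. EdgeR 4.0.16 on recovered reads was an alternative chosen after seeing the data. The planned edgeR and DESeq2 fits on unique counts gave no value for members, which have none in that table. Libraries with one replicate number deviated together (r = 0.61, 0.75 and 0.42 after subtracting genotype means), so blocked values are given where they change a call, although what a number stands for is not labelled.

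The fits were tested on simulated data. For expression, limma with the block recovered nearly all simulated 4-fold changes and also made some false calls. That simulation gave libraries of one replicate number a shared effect, as the block assumes. It placed no changes in entries with few reads. Simulated 4-fold changes in few introns were not recovered by the intron fit at the spread of these data, whereas 16-fold changes mostly were, and 4-fold changes mostly were when most introns moved, as they do here. Members named were those past a threshold in a limma fit, the 10 most abundant, up to 8 rises and 8 falls without overlap at 1 RPKM or more, and those in tested introns; family members and a few others were added after their values were seen. The members and lists were chosen with earlier results of these data known.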

Additional observations from a re-analysis of the deposited data

How the results depend on the processing

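Without the block, no member was called under any limma setting or by edgeR on recovered reads; 7 were called by limma with the replicate block and 1 by edgeR with it. The median over all members stayed below 0, at −0.49 with a pseudocount of 0.1, −0.22 with 1, −0.50 with edgeR and −0.60 with edgeR and the block, and from −0.33 to −0.20 with 1 library left out, the last without Col-0 replicate 1. Over members without another gene it was −0.92 and −0.29 with those pseudocounts, −1.13 and −1.26 with edgeR without and with the block, −0.47 at equal library totals, and −0.48 to −0.42 with 1 library left out. In that class 13 members were below 0 when only members of at least 1 RPKM were kept, because fewer were tested, and 31 to 37 with 1 library left out.

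The median of intronic members reversed to −0.016 without Col-0 replicate 2 and ran from there to 0.31, so its sign rests on single libraries. With the replicate block 7 targets were called against 0 without it, and 2 host introns against 4; leaving out 1 library gave 2 to 4 introns, with 2 when replicate 2 of Col-0, or replicate 2 or 3 of the mutant, was dropped. MIR163 reversed to 0.018 with edgeR and ran from −0.75 to 0.60 with 1 library left out, MIR850 from −0.054 to 0.84 and MIR863 from −0.78 to 0.16. MIR398b, near 0, reversed to −0.065 with edgeR, −0.00053 with a pseudocount of 1, −0.036 after scaling by median ratio and −0.090 at equal totals, and ran from −0.35 to 0.22 with 1 library left out. The causes were not tested. Members with few reads are limited by counting.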
